A study of Homo sapiens with 14 samples.

Results

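The 10 genes described here, HILPDA, PLIN2, PLIN3, G0S2, PNPLA2, DGAT1, DGAT2, LPIN1, FABP5 and CPT1A, build, coat, guard, open or burn the fat store of the cell. They were chosen by name for these roles, with earlier results of these data known. All 10 were found among the 23106 genes counted in each library. Polyadenylated RNA was sequenced from PC3, a human prostate cancer line grown in DMEM/Ham's F12 medium, and from HCT116, a human colorectal cancer line grown in McCoy's 5a medium, both with fetal bovine serum. Each line was kept in normoxia (21% O2) or in hypoxia (0.5% O2) for 16 h, with 4 libraries of PC3 and 3 of HCT116 in each condition. Line, tissue of origin and medium cannot be told apart, and each line stands for its tissue alone. Neither line carried a genetic change made by the study in the libraries used here.

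Lipid droplets are stores of triglyceride and sterol ester under a single layer of phospholipid, which is coated by perilipins. Triglyceride is made by stepwise esterification of glycerol phosphate. Lipins remove the phosphate and the DGAT enzymes add the last fatty acid. The store is opened by adipose triglyceride lipase, the product of PNPLA2, whose activity is held back by the small proteins HILPDA and G0S2. Released fatty acids enter mitochondria for oxidation through CPT1. Hypoxia is known to favour storage over oxidation in many cultured cells, and HILPDA and PLIN2 are known as genes that respond to it.

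The libraries were deep. Total counts per library ranged from 98021966 to 123935458 in normoxic PC3 cells and from 71228454 to 96159803 in hypoxic ones, so that every hypoxic PC3 library was shallower than every normoxic one. The HCT116 libraries held more, up to 150630928 counts. The PC3 libraries of replicate 1 stood apart from the others in both conditions, with scores of 16.8 and 29.3 on the second principal component against -16.0 to 3.13 in the other 6, and results are given without them where that changes a call. Hypoxic replicate 4 of PC3 also stood apart, with a score of 31.1 on the first component against 4.65 to 13.7 in the other hypoxic libraries. Without it 1143 genes were called higher and 942 lower in PC3, and the calls of the 10 genes did not change. All 8 known targets of the hypoxia-inducible factors that were set as a check (CA9, NDRG1, PDK1, ANKRD37, EGLN3, VEGFA, BNIP3 and ADM) rose in hypoxia in both lines, with a median log2 fold change of 1.66 in PC3 and 2.89 in HCT116. Summed epithelial markers (EPCAM, KRT8, KRT18, CDH1) lay between 2823 and 3299 CPM in normoxic and 3200 and 3633 CPM in hypoxic PC3 libraries, and between 3124 and 3260 and 3599 and 3959 CPM in those of HCT116. CDH1 rose in both lines (log2 0.34 in PC3 and 0.80 in HCT116) and KRT8 in HCT116 (0.37). Of 4 leukocyte markers, CD68 rose in both lines (0.35 and 0.71), while CD3E was at or under 3 counts in every library. These 3 markers were named after their values were seen, and their part in the results on fat storage genes was not tested. The PC3 calls of CDH1 and CD68 were lost without normoxic replicate 2, 3 or 4 or hypoxic replicate 2 (edgeR adjusted p up to 0.0829 and 0.0977), and that of CD68 also without normoxic replicate 1 (0.0541) and by total count alone (0.0594). Of 5 prostate markers, KLK2 and KLK3 were at or under 3 counts in every PC3 library, and of 5 intestinal markers CDX1, CDH17 and LGR5 were at or under 3 counts in every HCT116 library. Summed adipocyte markers (ADIPOQ, LEP, PLIN1, CIDEC, FABP4, LPL) reached at most 1.31 CPM in PC3 and 0.147 CPM in HCT116, and ADIPOQ and LPL were at or under 3 counts in every library.

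Levels are given as CPM, counts scaled to the size of the library and by TMM over the 14 libraries, and are relative to all other polyadenylated RNA of the cells. In such bulk samples, fewer cells with a transcript and less of it per cell cannot be told apart. In PC3, 3 of the 10 genes rose in hypoxia (HILPDA, PLIN2 and G0S2) and 0 fell, by edgeR's quasi-likelihood test at an adjusted p under 0.05. Of 14309 genes tested in PC3, 6.03% were called higher and 5.29% lower. In HCT116, where G0S2 was too scarce to test, 3 of 9 rose (HILPDA, PLIN2 and LPIN1) and 0 fell, against 14.6% of 14120 genes called higher and 11.3% lower. At an unadjusted p under 0.05 5 of the genes were higher in PC3 and 4 in HCT116, with 0 lower in either, and DESeq2 called 3 higher and 0 lower in each line. Over all genes tested, DESeq2 called 1392 higher and 1209 lower in PC3 and 2118 and 1976 in HCT116. The share of all genes at the unadjusted threshold was not counted. The median log2 fold change of the genes tested was 0.26 in PC3 and 0.06 in HCT116, against 0.00 over all genes in both lines.

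The replicate numbers pair the PC3 libraries, and with the replicate number as a block the test called 6 of the 10 higher (HILPDA, PLIN2, PLIN3, G0S2, PNPLA2 and LPIN1) and 1 lower (DGAT2). The block raised calls over all genes too, to 14.9% higher and 13.6% lower. Scaling decides part of these counts. By total count alone, which shifted the median log2 fold change of all genes to -0.10 in PC3, 562 genes were called higher and 1730 lower there, against 863 and 757 with TMM, and upper-quartile scaling gave 681 and 1048. In HCT116, total count alone gave 1286 higher and 3146 lower against 2061 and 1597. HILPDA and PLIN2 passed the test in both lines, and LPIN1 in HCT116, under each of these scalings.

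**Figure D1:**
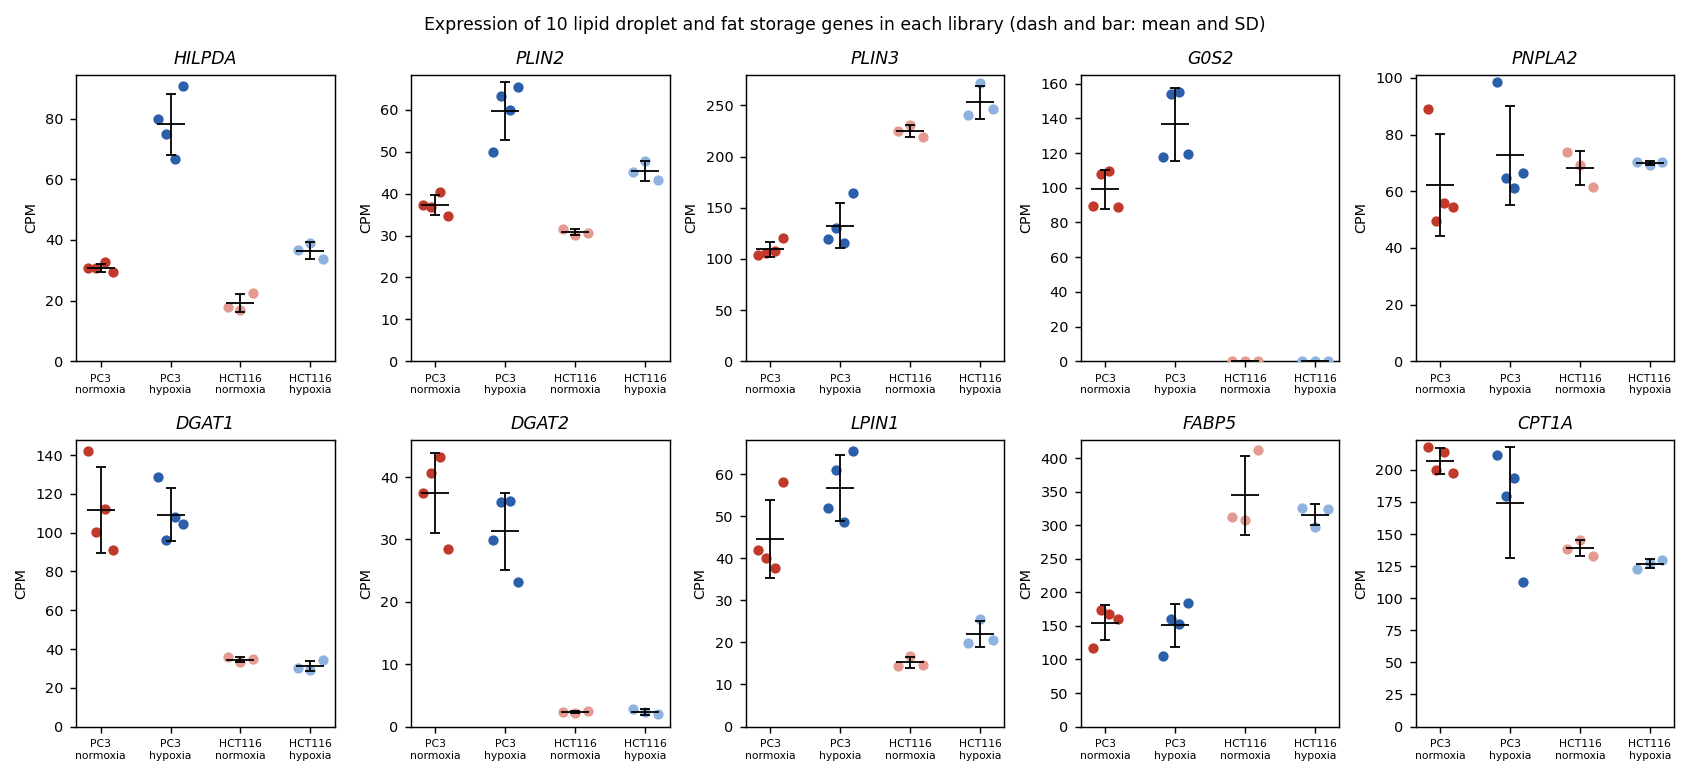
Level of each of the 10 genes in each of the 14 libraries, in CPM on a linear axis from 0, with a panel per gene, a point per library and the mean and SD of the group as a dash and bar. The hypoxic points of HILPDA and PLIN2 lie above all normoxic points of the same line, and G0S2 is near 0 in all HCT116 libraries.

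HILPDA, the hypoxia-inducible lipid droplet-associated protein that binds and inhibits adipose triglyceride lipase, had the largest rise of those tested in both lines. The gene lies on chromosome 7 (GRCh37, 128095903 to 128098472, plus strand). In normoxic PC3 libraries its level was 30.8, 30.9, 32.6 and 29.3 CPM in replicates 1 to 4, and in hypoxic ones it was 79.9, 74.8, 66.8 and 90.8 CPM. The groups were far apart and the normoxic libraries hardly varied. HILPDA rose 2.54-fold (log2 fold change 1.34, SE 0.10, edgeR adjusted p = 0.00013), which placed it at rank 91 of the 14309 genes by fold change. In HCT116 the level was 17.99, 16.9 and 22.4 CPM in normoxia and 36.7, 39.1 and 33.6 CPM in hypoxia. Again every hypoxic library lay above every normoxic one, and the rise was 1.93-fold (log2 0.95, SE 0.11, edgeR adjusted p = 0.000118; rank 310 of 14120). The rise on the log2 scale was 0.40 larger in PC3 (95% confidence interval 0.08 to 0.73), a difference between the lines that did not pass the edgeR interaction test (adjusted p = 0.195, unadjusted p = 0.0186). The annotation places long noncoding transcripts over HILPDA on the same strand, and reads that both genes could claim are uncertain.

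PLIN2, or adipophilin, coats droplets in most cell types and is degraded when it is not bound to them. It lies on chromosome 9 (GRCh37, 19108373 to 19149288, minus strand). Its level was 37.2, 36.8, 40.4 and 34.6 CPM in normoxic PC3 cells and 49.9, 63.4, 60.0 and 65.5 CPM in hypoxic ones. The groups did not overlap, with replicate 1 the lowest of the hypoxic libraries. The rise was 1.61-fold (log2 0.68, SE 0.09, edgeR adjusted p = 0.0024). In HCT116, PLIN2 went from 31.6, 30.2 and 30.5 CPM to 45.1, 47.9 and 43.3 CPM. The 3 hypoxic libraries were again all above the normoxic ones, and the rise was 1.49-fold (log2 0.58, SE 0.07, edgeR adjusted p = 0.000125). The responses of the lines differed by 0.12 on the log2 scale, with an interval from -0.14 to 0.38.

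PLIN3, or TIP47, is an exchangeable coat protein that moves from the cytosol onto young droplets. The gene is on chromosome 19 (GRCh37, 4838353 to 4867706, minus strand). PC3 libraries held 104, 106, 107 and 120.4 CPM in normoxia and 119.8, 129.8, 116 and 165 CPM in hypoxia. The groups met at their edges, because normoxic replicate 4 lay above hypoxic replicates 1 and 3, but within each replicate number the hypoxic library was the higher. PLIN3 did not pass the unpaired test in PC3 (log2 0.28, SE 0.11, edgeR adjusted p = 0.132) and passed with the replicate block (log2 0.27, SE 0.07, edgeR adjusted p = 0.0222). In HCT116 the values were 225, 231 and 219.5 CPM in normoxia and 241, 272 and 247 CPM in hypoxia. These groups did not overlap, yet the difference missed the threshold (log2 0.19, SE 0.07, edgeR adjusted p = 0.0612).

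G0S2, an inhibitor of adipose triglyceride lipase that is abundant in fat and liver, separated the lines more than any other of the 10 genes. It lies on chromosome 1 (GRCh37, 209848757 to 209849735, plus strand) within the span of an antisense transcript of the opposite strand, HSD11B1-AS1. In normoxic PC3 cells it stood at 89.7, 108, 109.9 and 88.8 CPM, and in hypoxic ones at 118, 154, 155 and 119 CPM. Replicates 2 and 3 were the higher in both conditions and replicates 1 and 4 the lower. The hypoxic values all exceeded the normoxic ones, a 1.38-fold rise (log2 0.47, SE 0.12, edgeR adjusted p = 0.0342). Compared within replicate numbers the rise was even, from 0.39 to 0.52 on the log2 scale in the 4 pairs, and the block gave an adjusted p of 0.00105 by edgeR. Without the block the call was fragile. It was lost when any of 6 of the 8 libraries was left out in turn (all but the hypoxic replicates 1 and 4, adjusted p up to 0.100) and with total count alone (0.0780).

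In HCT116 the counts of G0S2 were 1, 0 and 4 in normoxia and 1, 0 and 17 in hypoxia. Of these 6 libraries, 4 were under the floor of 3 counts, and hypoxic replicate 3 alone gave nearly all counts of its group, so no response could be measured. Over the normoxic libraries, PC3 cells had 46812 counts and HCT116 cells 5, a ratio of 8386 after scaling, with a 95% exact interval of 3593 to 25829 that covers counting error only.

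PNPLA2 itself, the lipase that takes the first fatty acid from triglyceride, is on chromosome 11 (GRCh37, 818914 to 825573, plus strand). In PC3 it was at 89.0, 49.4, 56.0 and 54.3 CPM in normoxia and at 98.5, 64.6, 61.0 and 66.6 CPM in hypoxia. Replicate 1 was far above the others in both conditions, which spread each group and made them overlap. PNPLA2 did not pass the unpaired test (log2 0.23, SE 0.22, edgeR adjusted p = 0.535), but each hypoxic library exceeded its normoxic partner and the paired test called it (log2 0.24, SE 0.06, edgeR adjusted p = 0.0216). Without both libraries of replicate 1 the unpaired edgeR test also called it (log2 0.27, adjusted p = 0.0465). In HCT116 the levels were 73.7, 69.3 and 61.6 CPM in normoxia and 70.4, 69.4 and 70.5 CPM in hypoxia. The hypoxic values lay inside the normoxic range (log2 0.06, interval -0.10 to 0.21).

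Per kilobase of exon, the scale on which genes can be compared, the ratio of the level of HILPDA to that of its target PNPLA2 was 0.641, 1.16, 1.08 and 0.999 in normoxic PC3 libraries. In hypoxic ones it was 1.501, 2.14, 2.03 and 2.52. Each hypoxic PC3 library lay above all 4 normoxic ones in this ratio, and normoxic replicate 1 was the lowest. In HCT116 the median ratio was 0.452 in normoxia and 0.964 in hypoxia. The ratio of G0S2 to PNPLA2 had a median of 7.87 in normoxic and 9.14 in hypoxic PC3 cells, with overlapping ranges of 4.41 to 9.54 and 5.22 to 11.1. Within each replicate number the hypoxic library had the higher ratio. In replicates 1 to 4 it was 4.41, 9.54, 8.59 and 7.15 in normoxia and 5.22, 10.4, 11.1 and 7.83 in hypoxia. The size of these ratios depends on the exon length used, but their comparison between groups does not.

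**Figure D2:**
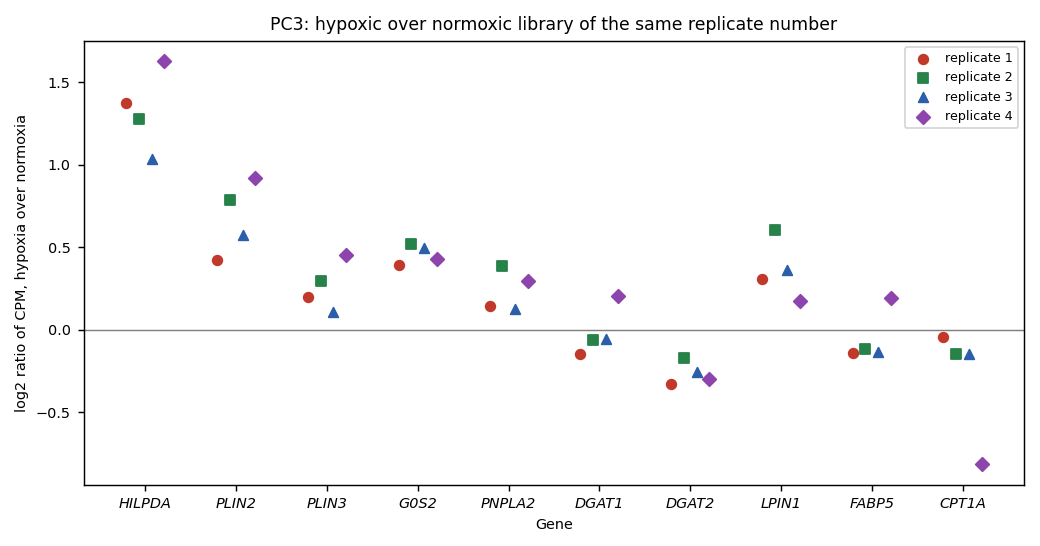
Log2 ratio of CPM of the hypoxic to the normoxic PC3 library of the same replicate number, with a column per gene and a symbol per replicate. All 4 ratios are above 0 for HILPDA, PLIN2, PLIN3, G0S2, PNPLA2 and LPIN1 and below 0 for DGAT2 and CPT1A, and the lowest point is replicate 4 of CPT1A at -0.82.

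LPIN1 encodes lipin 1, the phosphatase that turns phosphatidic acid into diacylglycerol, the substrate of the DGAT enzymes. It is on chromosome 2 (GRCh37, 11817721 to 11967535, plus strand). HCT116 levels were 14.4, 16.8 and 14.6 CPM in normoxia and 19.9, 25.5 and 20.7 CPM in hypoxia. The groups did not overlap, and LPIN1 rose 1.46-fold (log2 0.55, SE 0.10, edgeR adjusted p = 0.00303). In PC3 the levels were 42.0, 40.1, 37.8 and 58.2 CPM in normoxia and 52.0, 60.9, 48.6 and 65.6 CPM in hypoxia. Normoxic replicate 4 reached into the hypoxic range, and the unpaired test was not passed (log2 0.36, SE 0.14, edgeR adjusted p = 0.144), whereas the block (0.37, SE 0.07, adjusted p = 0.0102) and the unpaired test without normoxic replicate 4 (0.50, adjusted p = 0.0369) were. The responses of the lines differed by -0.18 on the log2 scale (interval -0.62 to 0.26, edgeR interaction adjusted p = 0.747), so a call in HCT116 and none in unpaired PC3 does not separate them.

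RefSeq promoters (GRCh38.p14, 250 bases before to 50 after the start) of 6 of the genes were searched on both strands for ACGTG and GCGTG, the core letters of the hypoxia response element. For each gene the first listed start site was used, and any other start sites were not searched. The promoters of HILPDA and DGAT2 had no entry. Those of PLIN2, G0S2 and LPIN1 are printed because each of these genes rose in at least 1 line. Capitals mark the matches, with CACGC the reverse complement of GCGTG and CACGTG a pair of overlapping ACGTG matches, an E-box, on opposite strands. The windows are chr9:19127443-19127742 (minus strand), chr1:209675162-209675461 (plus strand) and chr2:11746382-11746681 (plus strand).
PLIN2: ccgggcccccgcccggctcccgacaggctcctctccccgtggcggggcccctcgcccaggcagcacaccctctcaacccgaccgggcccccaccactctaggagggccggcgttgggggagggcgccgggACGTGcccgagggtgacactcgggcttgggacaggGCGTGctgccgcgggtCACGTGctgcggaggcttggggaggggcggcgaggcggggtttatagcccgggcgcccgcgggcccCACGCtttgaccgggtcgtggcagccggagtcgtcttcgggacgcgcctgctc
G0S2: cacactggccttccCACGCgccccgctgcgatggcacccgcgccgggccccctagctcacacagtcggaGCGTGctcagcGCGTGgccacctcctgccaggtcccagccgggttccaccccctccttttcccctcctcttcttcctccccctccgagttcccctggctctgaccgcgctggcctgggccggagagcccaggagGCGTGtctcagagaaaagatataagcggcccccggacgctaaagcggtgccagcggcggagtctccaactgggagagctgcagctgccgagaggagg
LPIN1: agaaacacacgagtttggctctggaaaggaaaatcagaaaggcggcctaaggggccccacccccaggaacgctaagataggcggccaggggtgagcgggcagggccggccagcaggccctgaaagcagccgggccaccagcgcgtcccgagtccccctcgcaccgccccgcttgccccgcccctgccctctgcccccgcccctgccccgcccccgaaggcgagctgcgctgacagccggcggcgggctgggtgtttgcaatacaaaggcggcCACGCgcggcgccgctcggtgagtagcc
PLIN2 held 5 matches, 3 of ACGTG and 2 of GCGTG, the first of them 120 bases and the last 3 bases before the start. G0S2 held 4 of GCGTG, PLIN3 held 3, LPIN1 and CPT1A held 1 each, and PNPLA2 held 0. Of 35116 promoters of the same length, 21.4% held ACGTG, 36.5% GCGTG and 48.4% either, so a match is common, and it describes letters alone.

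DGAT2, the droplet-associated enzyme that adds the last acyl chain to newly made triglyceride, is on chromosome 11 (GRCh37, 75470557 to 75512580, plus strand). In PC3 it was at 37.5, 40.6, 43.2 and 28.5 CPM in normoxia and at 29.9, 36.1, 36.2 and 23.2 CPM in hypoxia. Replicate 4 was the lowest in both conditions and the groups overlapped. The unpaired test was not passed (log2 -0.25, SE 0.16, edgeR adjusted p = 0.356). Within pairs all 4 differences were negative, from -0.33 to -0.17 on the log2 scale, and with the block DGAT2 fell (log2 -0.26, SE 0.05, edgeR adjusted p = 0.00878). HCT116 cells had little of it, 2.33, 2.17 and 2.52 CPM in normoxia and 2.75, 2.29 and 1.95 CPM in hypoxia. The HCT116 groups overlapped in full, and the interval of the log2 fold change, -0.33 to 0.35, holds the PC3 estimate too.

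CPT1A, the outer mitochondrial carnitine palmitoyltransferase that admits long-chain fatty acids to oxidation, is on chromosome 11 (GRCh37, 68522088 to 68611878, minus strand). Its PC3 levels were 218, 199.6, 214 and 198 CPM in normoxia and 212, 180.0, 193 and 112 CPM in hypoxia. Hypoxic replicate 4 was well below all other libraries and set most of the difference, which did not pass the test (log2 -0.24, SE 0.17, edgeR adjusted p = 0.393) and was -0.08 without that library. In HCT116 the values were 138, 146 and 133 CPM in normoxia and 123, 128 and 129.7 CPM in hypoxia. The groups did not overlap, but the difference was small and missed the threshold (log2 -0.12, interval -0.25 to 0.02, edgeR adjusted p = 0.181).

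DGAT1, the enzyme of the endoplasmic reticulum that esterifies fatty acids taken up or released in the cell, lies on chromosome 8 (GRCh37, 145538247 to 145550573, minus strand), and its 3′ end overlaps HSF1 on the opposite strand. In PC3 it was at 142, 101, 112 and 91.05 CPM in normoxia and 129, 96.2, 108 and 105 CPM in hypoxia. The 2 groups covered the same range, with replicate 1 the highest in both. The log2 fold change was -0.02 with an interval of -0.36 to 0.31. In HCT116 the levels were 35.7, 33.2 and 34.6 CPM in normoxia and 30.2, 29.3 and 34.2 CPM in hypoxia. Hypoxic replicate 3 fell within the normoxic range, and the difference did not pass (log2 -0.13, SE 0.07, edgeR adjusted p = 0.211).

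FABP5, a cytosolic fatty acid carrier of epithelial cells, is also on chromosome 8 (GRCh37, 82192771 to 82197012, plus strand) and has near-identical pseudogene copies, so its counts are uncertain. PC3 libraries held 117, 174, 168 and 160.4 CPM in normoxia and 106, 161, 153 and 184 CPM in hypoxia. Replicate 1 was the lowest in both conditions, and the groups overlapped throughout (log2 -0.03, interval -0.41 to 0.34). HCT116 libraries held 313, 309 and 412 CPM in normoxia and 326, 298 and 325 CPM in hypoxia. Normoxic replicate 3 stood above the rest, and the interval of the log2 fold change ran from -0.34 to 0.12.

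**Figure D3:**
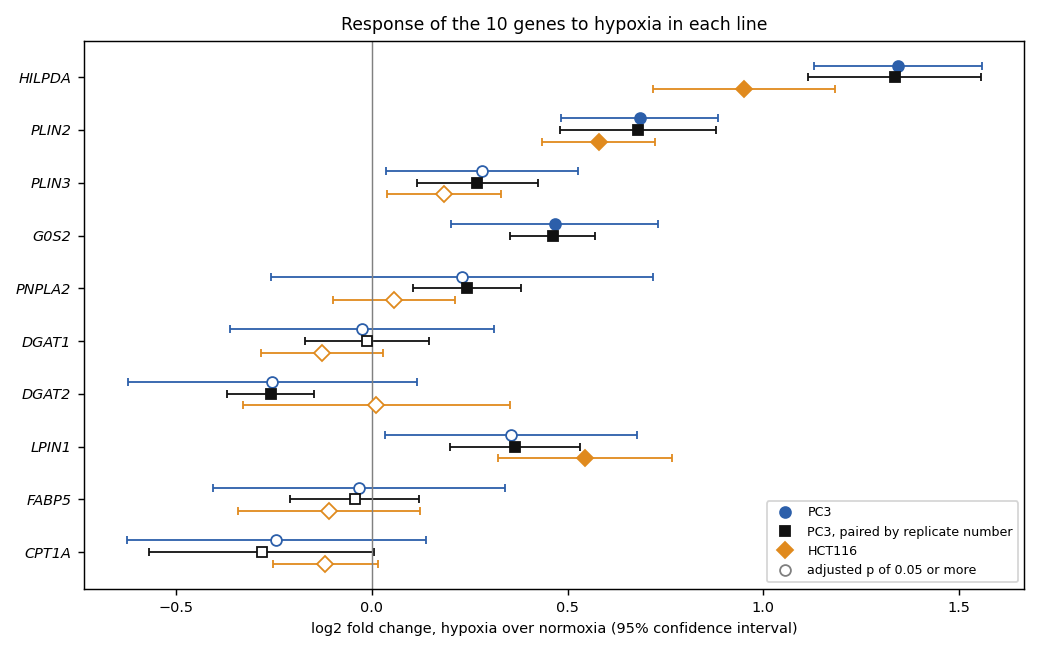
Log2 fold change of each gene, hypoxia over normoxia, with its 95% confidence interval, for PC3 unpaired (circles), PC3 paired by replicate number (squares) and HCT116 (diamonds). Filled symbols passed an adjusted p of 0.05 in edgeR, as HILPDA and PLIN2 did in all 3 fits. G0S2 has no HCT116 value, and pairing narrowed the PC3 interval of PNPLA2 from -0.26 to 0.72 down to 0.11 to 0.38.

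None of the 10 genes passed the edgeR interaction test of whether the lines responded unequally, 0 in either direction, where 2.32% of 15493 genes did. At an unadjusted p under 0.05 there was 1, HILPDA, and DESeq2 also called 0, against 470 higher and 504 lower over all genes. The split of all called genes depended on scaling, with 156 responding more upwards in PC3 and 203 less by TMM against 115 and 278 by upper quartile. The intervals were wide for several genes, from -0.37 to 0.75 for PNPLA2 and from -0.77 to 0.27 for DGAT2. For G0S2 the interval of -4.11 to 1.41 says little, since HCT116 gave so few counts.

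The lines differed far more in resting levels than in response, with median absolute log2 differences of 1.10 and 0.15. Over all genes tested these were 0.89 and 0.19, so the contrast is not particular to the 10 genes. In normoxia 7 of the 10 genes were higher in PC3 than in HCT116 and 2 were lower by the edgeR test, where 42.4% of all 15493 genes were called higher and 38.9% lower. Both triglyceride-forming enzymes were higher in PC3, DGAT2 by 16.0-fold (log2 4.00, SE 0.19, edgeR adjusted p = 3.55e-11) and DGAT1 by 3.23-fold (log2 1.69, SE 0.14, edgeR adjusted p = 1.42e-08). LPIN1 was 2.91-fold higher (log2 1.54, SE 0.15), HILPDA 1.62-fold (0.69, SE 0.11), CPT1A 1.49-fold (0.58, SE 0.15) and PLIN2 1.21-fold (0.28, SE 0.09), and G0S2 was given above. PLIN3 (log2 -1.04, SE 0.10) and FABP5 (log2 -1.16, SE 0.17) were lower in PC3. The ratio of PLIN3 to PLIN2 transcripts per kilobase was 4.87 to 6.37 in normoxic PC3 libraries and 13.02 to 13.98 in normoxic HCT116 ones, and the ratio of DGAT1 to DGAT2 was 4.74 to 7.26 in PC3 and 26.2 to 29.3 in HCT116. The size of such a ratio depends on the exon length used, though its comparison between lines does not. PLIN2 has 5.011 kilobases by all exons and 1.897 by its longest transcript, and PLIN3 has 2.739 and 2.232. PNPLA2 was the exception, at -0.13 (SE 0.19, edgeR adjusted p = 0.512), but it was called lower in PC3 without normoxic replicate 1 of PC3 (-0.36, adjusted p = 0.0314). In all, PNPLA2 was called lower under 2 of 24 alternative fits, with an edgeR adjusted p down to 0.000526.

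Per kilobase of exon, the order of mean levels in normoxic PC3 cells was G0S2 (113 ± 12.9 CPM per kilobase, SD, n = 4), FABP5 (81.3 ± 13.6), PLIN3 (40.0 ± 2.71), CPT1A (31.5 ± 1.54), DGAT1 (27.0 ± 5.39), PNPLA2 (16.2 ± 4.72), HILPDA (14.9 ± 0.635), PLIN2 (7.43 ± 0.477), DGAT2 (4.74 ± 0.813) and LPIN1 (3.75 ± 0.781). Ranges of neighbours overlapped for CPT1A and DGAT1, for DGAT1 and PNPLA2, for PNPLA2 and HILPDA, and for DGAT2 and LPIN1. In hypoxia HILPDA moved from place 7 to place 4 in PC3, at 37.7 ± 4.85, where its range met that of PLIN3 (48.4 ± 8.14). It barely cleared the range of CPT1A (26.5 ± 6.61), with a lowest HILPDA value of 32.27 and a highest CPT1A value of 32.25. The other PC3 levels in hypoxia were 156 ± 23.8 for G0S2, 79.2 ± 17.1 for FABP5, 26.5 ± 3.32 for DGAT1, 19.0 ± 4.53 for PNPLA2, 11.9 ± 1.38 for PLIN2, 4.78 ± 0.662 for LPIN1 and 3.96 ± 0.783 for DGAT2. In HCT116 the order in normoxia was FABP5 (181 ± 30.8, n = 3), PLIN3 (82.2 ± 2.07), CPT1A (21.2 ± 0.962), PNPLA2 (17.8 ± 1.59), HILPDA (9.22 ± 1.42), DGAT1 (8.35 ± 0.305), PLIN2 (6.14 ± 0.147), LPIN1 (1.29 ± 0.112), DGAT2 (0.296 ± 0.0225) and G0S2, and the ranges of HILPDA and DGAT1 overlapped. In hypoxia HILPDA (17.6 ± 1.34) reached the level of PNPLA2 (18.3 ± 0.165) there, and PLIN2 (9.07 ± 0.467) came before DGAT1 (7.56 ± 0.623). With the length of the longest transcript in place of all exons, FABP5 came before G0S2 and LPIN1 before DGAT2 in normoxic PC3 cells. On that scale PLIN2 (31.5) came before DGAT1 (29.9) and PNPLA2 (26.7) in hypoxic PC3 cells, and before HILPDA in normoxic HCT116 cells (16.2 and 13.9). In hypoxic HCT116 cells HILPDA (26.6) came before PNPLA2 (25.7) and CPT1A (24.2).

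**Figure D4:**
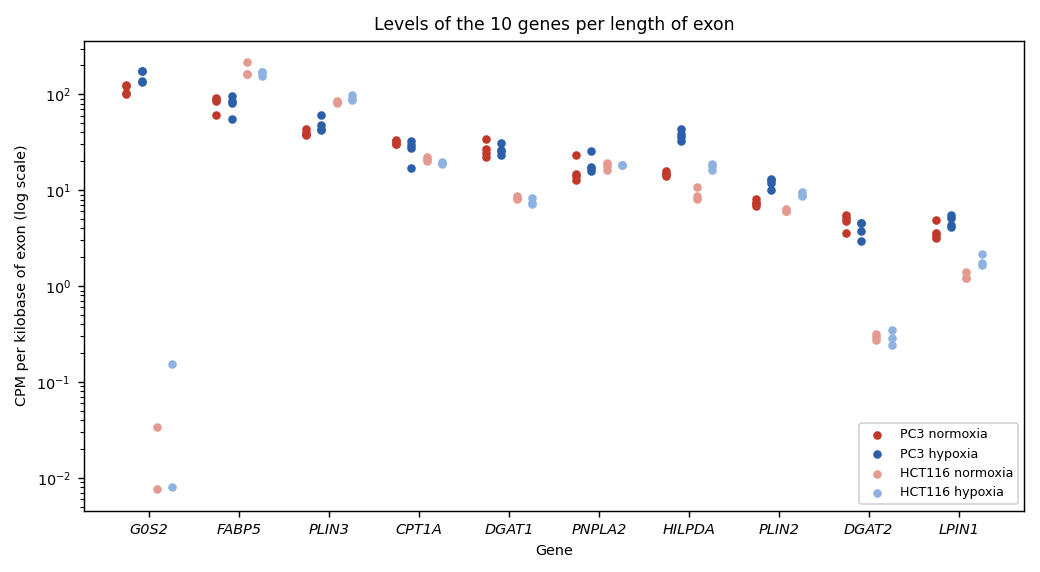
Level of each gene in CPM per kilobase of exon on a log axis, a point per library coloured by group, with genes ordered by their mean in normoxic PC3 cells. G0S2 and DGAT2 separate the lines most, PNPLA2 least, and the HCT116 libraries in which G0S2 had 0 counts are not drawn.

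Around these genes, 84 others of fat storage and use were counted in 6 lists. Of 62 tested in PC3, 5 rose and 3 fell, against 6.03% and 5.29% of all genes tested. Of 66 tested in HCT116, 9 rose and 10 fell, against 14.6% and 11.3%. The counts of each list are to be read against the same shares. The median log2 fold change was 0.01 and -0.01, near the 0.00 of all genes. Of droplet coat and biogenesis genes, 0 of 11 passed in PC3 (2 lower at an unadjusted p under 0.05, 0 by DESeq2), and 1 of 13 fell in HCT116, AUP1 (log2 -0.32, edgeR adjusted p = 0.00331), which recruits ubiquitin enzymes to droplets.

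Among genes of triglyceride and sterol ester synthesis, GPAM, the mitochondrial acyltransferase of the first step, fell in both lines (log2 -0.55, SE 0.13 in PC3 and -0.40, SE 0.09 in HCT116). Its level was 23.6 to 34.0 CPM in normoxic and 16.6 to 22.6 CPM in hypoxic PC3 libraries, which do not overlap. AGPAT2, the acyltransferase of the next step, rose in both lines (0.38, SE 0.08 in PC3 and 0.19, SE 0.06 in HCT116), and AGPAT4 (0.62, SE 0.17) and LPIN2 (0.32, SE 0.08) rose in HCT116. In all, 1 of 12 rose and 1 fell in PC3. In HCT116, 3 of 11 rose and 2 fell. Of lipolysis genes, 0 of 4 passed in PC3 (1 higher at an unadjusted p under 0.05, 0 by DESeq2) and 2 of 5 fell in HCT116. These were ABHD5, the coactivator of the PNPLA2 lipase (log2 -0.42, SE 0.06), and LIPE, hormone-sensitive lipase (-0.32, SE 0.10). The unpaired PC3 calls of GPAM and AGPAT2 were each lost by edgeR without normoxic replicate 2, 3 or 4 or hypoxic replicate 2 (adjusted p up to 0.0824 and 0.0718), and both passed with the block. In HCT116, AGPAT4 was lost without normoxic replicate 1 or hypoxic replicate 2 or 3 (up to 0.0701), LPIN2 without normoxic replicate 2 (0.0514), and LIPE without either of normoxic replicates 1 and 2 or hypoxic replicates 2 and 3 (up to 0.109). AGPAT2 passed there under 3 of 15 alternatives (adjusted p up to 0.35), and was lost when any of the 6 HCT116 libraries was left out in turn. A joint fit of both lines also ended the HCT116 calls of GPAM (0.0604), AGPAT4 (0.0922), LPIN2 (0.317) and LIPE (0.107).

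Of genes of uptake, activation and carriage, 2 of 13 rose and 1 fell in PC3. In HCT116, 2 of 14 rose and 2 fell. VLDLR, the very low density lipoprotein receptor, rose most in PC3 (log2 1.30, SE 0.14, edgeR adjusted p = 0.000953), from 1.57 to 2.25 CPM up to 4.33 to 5.27 CPM, and was at or under 0.0224 CPM in the HCT116 libraries. SLC27A3, an acyl-CoA synthetase, rose in both lines (0.49, SE 0.11 in PC3 and 0.72, SE 0.10 in HCT116), and SLC27A2 fell in both (-0.43, SE 0.10 in PC3 and -0.25, SE 0.08 in HCT116). By edgeR the PC3 calls were lost without normoxic replicate 2 (adjusted p = 0.072 for SLC27A3 and 0.0771 for SLC27A2) or hypoxic replicate 2 (0.0587 and 0.0669), and that of SLC27A2 also without normoxic replicate 3 (0.0769), and both passed with the block. The HCT116 call of SLC27A2 held under 8 of 15 alternatives, and was lost without any of normoxic replicates 1 to 3 or hypoxic replicates 2 and 3 (up to 0.129), in the joint fit (0.102) and with thinned counts (0.0922).

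In mitochondrial oxidation, 0 of 17 rose and 1 fell in PC3 (0 higher also at an unadjusted p under 0.05 and by DESeq2), ACADM, the medium-chain dehydrogenase (-0.22, SE 0.06). In HCT116, 3 of 17 rose and 3 fell, ACADM among the latter (-0.21, SE 0.07). The others named by size were ACADS (0.51, SE 0.07) and ACADVL (0.26, SE 0.07), dehydrogenases of short and very long chains, which rose, and CPT1B (-0.52, SE 0.12) and DECR1 (-0.39, SE 0.08), a muscle-type carnitine palmitoyltransferase and a reductase for unsaturated chains, which fell. The call of ACADM was lost by edgeR without any of normoxic replicates 1 to 4 or hypoxic replicates 2 and 3 of PC3 (adjusted p up to 0.123) and with no filter on low counts (0.0621), and held with the block. Its HCT116 call was lost without normoxic replicate 1 or 2 or hypoxic replicate 1 or 3 (up to 0.124) and with thinned counts (0.0798). That of ACADVL was lost without normoxic or hypoxic replicate 2 of HCT116 (0.069 and 0.0603), by total count alone (0.114) and in the joint fit (0.0503), which also ended that of CPT1B (0.347).

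Of lipid-sensing nuclear receptors and coactivators, 2 of 5 rose in PC3, PPARD (log2 0.91, SE 0.07, edgeR adjusted p = 0.000152) and RXRA (0.27, SE 0.07), and 1 of 6 rose in HCT116, RXRA again (0.25, SE 0.06). In PC3 the edgeR call of RXRA was lost without normoxic replicate 2, 3 or 4 or hypoxic replicate 2 or 3 (adjusted p up to 0.131), by upper-quartile scaling (0.0685) or total count alone (0.106), with no filter on low counts (0.0523) and with thinned counts (0.0536), and held with the block. In HCT116 it was lost without normoxic replicate 2 or hypoxic replicate 3 (0.0917 and 0.0507), by total count alone (0.118) and in the joint fit (0.058). PPARD, a fatty acid receptor whose known targets include PLIN2 and CPT1A, was at 68.9 to 80.8 CPM in normoxic and 132 to 139.7 CPM in hypoxic PC3 libraries. In HCT116 it was at 38.6 to 41.5 CPM and 39.7 to 42.95 CPM (0.08, SE 0.06), and its responses in the lines differed (0.85, SE 0.09, edgeR interaction adjusted p = 0.000149). The interaction test also called ABHD5 (0.42, SE 0.10, adjusted p = 0.0443) and AUP1 (0.40, SE 0.09, adjusted p = 0.026) among the 71 listed genes tested, 3 higher in PC3 relative to HCT116 and 0 lower (6 lower at an unadjusted p under 0.05, 0 by DESeq2). Over all 15493 genes tested, 156 were called higher and 203 lower, 2.32% in all. AUP1 was named here after its values were seen. The calls of ABHD5 and AUP1 were fragile. ABHD5 passed under 8 of 23 alternative fits and without replicate 1, 2 or 3 of either HCT116 group (adjusted p up to 0.131) it did not, and AUP1 was lost without normoxic replicate 3 of PC3 or any of normoxic replicates 1 and 3 and hypoxic replicates 1 to 3 of HCT116 (edgeR adjusted p up to 0.0773). ABHD5 was at 59.2 to 74.0 CPM in normoxic and 64.7 to 69.4 CPM in hypoxic PC3 libraries, and at 38.6 to 40.1 and 28.1 to 29.7 CPM in those of HCT116.

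**Figure D5:**
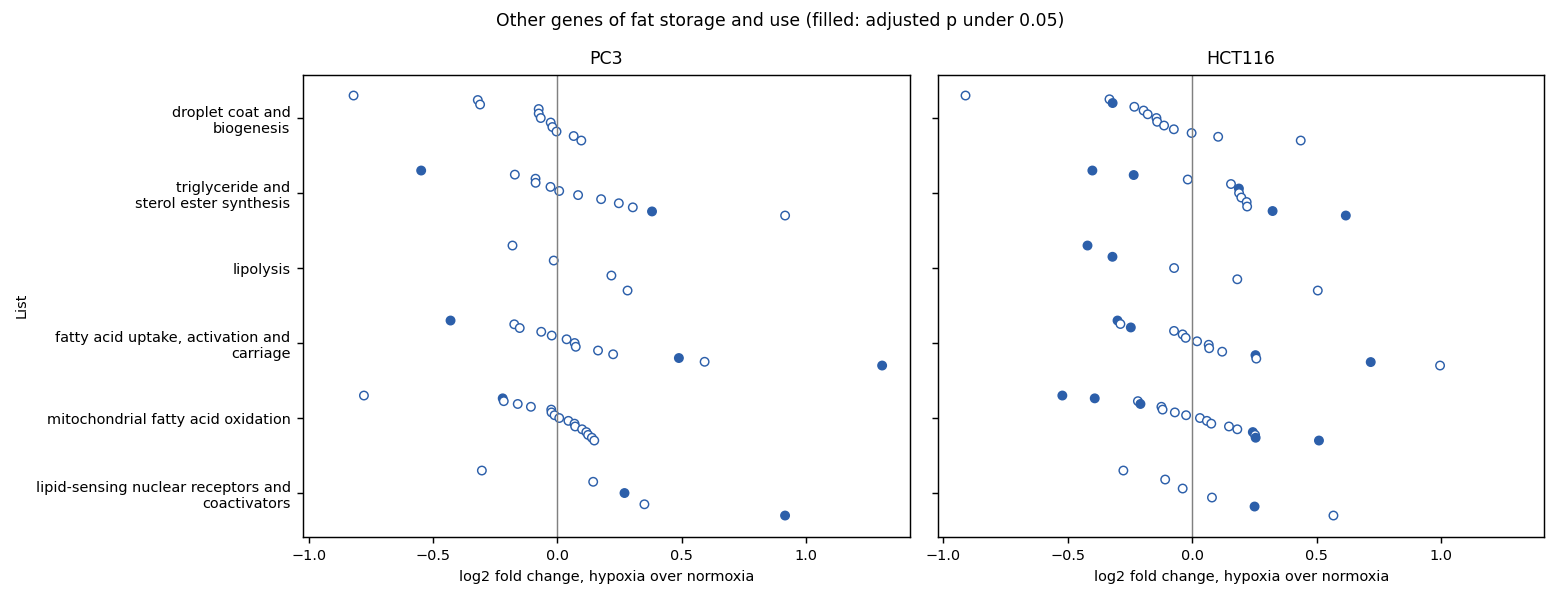
Log2 fold change, hypoxia over normoxia, of the other genes of fat storage and use in PC3 and HCT116, with a row per list and a point per tested gene, filled where the edgeR adjusted p was under 0.05. Points lie on both sides of 0 in every list in HCT116, and the far right filled point of PC3 is VLDLR at 1.30.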

How the data were processed

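Polyadenylated RNA was sequenced from PC3 and HCT116 cells. The authors aligned the reads with HISAT2 (version 2.05) to the ERCC spike-in sequences and the remainder to GRCh37, counted them within RefSeq genes with HTSeq (version 0.5.4p3, intersection-strict; versions per the submitters' processing notes), and deposited raw counts per gene. The strand setting and RefSeq release are not given in the sources used here, so overlapping genes are uncertain. ERCC counts are not used here, and levels are relative within a library. Total counts lay between 71228454 and 150630928, and 3 counts, taken as a floor, correspond to 0.0201 to 0.0447 CPM.

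Groups were taken from the labels. In R 4.3.3, edgeR 4.0.16 (filterByExpr, TMM, quasi-likelihood test, Benjamini-Hochberg over all genes tested, threshold 0.05, two-sided) was fitted to each line apart, with condition alone, and to all 14 libraries for the interaction and the difference between lines in normoxia. Replicates are described as biological by the study. The 10 genes, the lists and the promoter motifs were chosen with earlier results of these data known. Of the lists, up to 5 genes per line and direction were named, by fold change among those called with a mean of at least 1 CPM. Some genes that these rules name are not reported here. Exon lengths and positions came from GENCODE on GRCh37. Same-numbered PC3 libraries deviated together from their condition means (correlations across genes of 0.832, 0.523, 0.345 and 0.413), so the numbers pair them.

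The tests were repeated with size factors by median of ratios, by upper quartile and by total count, no filter and at least 10 counts per library, DESeq2 1.42.0, the replicate block, a joint fit of both lines, the normoxic libraries alone and each library left out in turn. Fits without both PC3 replicate 1 libraries and fits on thinned counts were added after the data had been seen. The tests were checked on simulated data.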

Additional observations from a re-analysis of the deposited data

Results flagged for a closer look

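In PC3, PNPLA2 of replicate 1 lay far from the other libraries of its group in both conditions, at 89.0 CPM in normoxia (others 49.4 to 56.0) and 98.5 CPM in hypoxia (others 61.0 to 66.6). Replicate 1 also held the far value of PPARD in normoxia, 80.8 CPM against 68.9 to 70.9. VLDLR was at 5.27 CPM in hypoxic replicate 2 and at 4.33 to 4.47 in the others. These are 4 far values in 38 groups of 4 libraries examined, where chance gives about 1 in 20, or 1.9.

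The edgeR interaction test over 14 libraries called 3 of the 71 other genes of fat storage and use tested. It called 2.32% of all 15493 genes. The log2 difference, PC3 relative to HCT116, was 0.85 for PPARD, 0.42 for ABHD5 and 0.40 for AUP1. PPARD passed under all 23 alternatives (adjusted p at most 0.00148). ABHD5 passed under 8 of them (adjusted p up to 0.131), and AUP1 had adjusted p-values up to 0.0773.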

How the results depend on the processing

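With the replicate number as a block, 6 of the 10 genes were called higher and 1 lower in PC3, against 14.9% and 13.6% of all genes tested. Of the 62 listed genes tested, 10 were then called higher and 6 lower. The block changed no call of the 10 genes in HCT116, whose numbers did not pair the libraries (correlations 0.0664, 0.373 and -0.0751, and not every library correlated best with its own number), nor in the interaction or between the lines. By total count alone, 2 of the genes were called lower in HCT116 (DGAT1 at -0.22 and CPT1A at -0.21), and PNPLA2 (-0.038) and DGAT2 (-0.080) changed sign there. Of the 66 listed genes tested in HCT116, 4 were called higher and 19 lower, where all 14120 genes gave 1286 and 3146. In PC3, 6 of 62 listed genes were called lower, where 1730 of all 14309 genes were. A joint fit of both lines called 5 listed genes lower in PC3, 2 higher and 5 lower in HCT116, turned DGAT2 to -0.0053 in HCT116 and lost G0S2 in PC3 (adjusted p = 0.128). DGAT1 in PC3 was 0.028 without both replicate 1 libraries. With the longest transcript, 6 of 10 genes kept their place in the order of normoxic PC3 levels. Leaving out libraries in turn gave 2 to 6 listed genes higher and 0 to 5 lower in PC3, in HCT116 4 to 9 higher and 6 to 10 lower, and 1 to 3 in the interaction. Over all genes these fits called 364 to 1143 higher and 189 to 942 lower in PC3. They called 1378 to 1853 higher and 1068 to 1486 lower in HCT116, and 78 to 294 higher and 94 to 423 lower in the interaction. In these, log2 fold changes that crossed 0 were those of DGAT1 (-0.12 to 0.12) and FABP5 (-0.14 to 0.10) in PC3, DGAT2 (-0.13 to 0.13), PNPLA2 (-0.019 to 0.10) and FABP5 (-0.19 to 0.035) in HCT116, and FABP5 (-0.062 to 0.22), PLIN3 (-0.017 to 0.17), CPT1A (-0.22 to 0.044) and G0S2 (-2.86 to 1.94) in the interaction. The cause was not tested. HILPDA and PLIN2 passed in both lines under every alternative run, 18 in PC3 and 15 in HCT116, with log2 fold changes of 1.23 to 1.42 and 0.86 to 1.08 for HILPDA and 0.58 to 0.76 and 0.49 to 0.62 for PLIN2, and LPIN1 passed in HCT116 under all 15 (0.43 to 0.61). Counts of G0S2 in HCT116 were too few to test. With counts thinned to the lowest total, HILPDA and PLIN2 still passed in both lines.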

Other observations

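Over the 14 libraries, with log2(CPM + 1) centred within each line, the genes most like HILPDA among 11967 included ARRDC3 (Pearson r 0.976), PPP1R3G (0.976), ANG (0.975) and DNTTIP1 (0.969). Of the 8 other genes described here that entered this comparison (G0S2 did not), PLIN2 came nearest (r 0.947, rank 30), followed by PLIN3 (0.739) and LPIN1 (0.723), and CPT1A was the most opposed (-0.60). The libraries share the contrast of hypoxia with normoxia, so these correlations describe likeness in that contrast.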
